A study of Homo sapiens with 2 samples.

Results

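Amino acid carriers of the plasma membrane were followed in A549 cells, a human lung adenocarcinoma line, infected with lentivirus that carried a hairpin RNA against DEPDC1B (shDEPDC1B) or a control hairpin (shNC). The 9 members are SLC7A1, SLC3A2, SLC7A5, SLC7A6, SLC7A11, SLC1A5, SLC1A4, SLC38A1 and SLC38A2, taken by symbol from the 39720 genes of the deposited count table. They were chosen by name and role with the ratios of scaled counts between these libraries known, so their ratios are given as a description and support nothing further. Cells of both groups received 5 µg/mL polybrene and were harvested on day 2. Each group has 1 library, shDEPDC1B with 18862371 counts and shNC with 18647290, so no test was possible and what is compared is 2 libraries, not 2 conditions. The study's stated aim was to explore the role of DEPDC1B, which encodes a DEP domain protein, in this cancer. Neither the hairpin sequences nor whether the infected cells are a pool or clones is given in the sources used here.

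Cells take up amino acids through carriers that differ in what they move and in what drives them. SLC7A1 carries arginine and lysine. SLC3A2 is the heavy chain of a family of exchangers whose light chains, among them SLC7A5, SLC7A6 and SLC7A11, do the transport and need it to reach the surface. SLC1A5 and SLC1A4 exchange small neutral amino acids such as glutamine, alanine and serine, and SLC38A1 and SLC38A2 load cells with glutamine and alanine along the sodium gradient, so that exchangers such as SLC7A5 can trade them for leucine. A549 cells carry an altered KEAP1, and NRF2, which drives SLC7A11, is constantly active in them. When amino acids run short the kinase GCN2 raises ATF4, a transcription factor that switches on several of these carriers.

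The 9 members gave 49056 counts, or 0.260% of the shDEPDC1B library, against 75846 counts, or 0.407% of the shNC library. Transcripts of 6 members were at least 1.5-fold lower in shDEPDC1B, with an exact interval of counting error that excluded equality: SLC7A1, SLC38A1, SLC7A11, SLC38A2, SLC7A5 and SLC7A6, in the order of their ratios. No member was at least 1.5-fold higher. All 9 passed the filter of 30 counts in the library where they were higher, and their share of lower genes was 66.7%, where the same rule found 19.6% lower and 19.2% higher among the 13850 genes that passed it. At 2-fold, 3 members were lower (SLC7A1, SLC38A1 and SLC7A11) and none higher, where all these genes gave 8.97% and 5.86%. The median log2 ratio of the members, shDEPDC1B over shNC, was -0.62, against 0.04 over all these genes. Fewer cells with a transcript and less of it in each cell cannot be told apart in such libraries.

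SLC7A1 (chromosome 13, minus strand, 29509410 to 29595688; positions are those of GENCODE 29 on GRCh38 throughout) stood farthest from equality. It had 352 counts in shDEPDC1B and 1605 in shNC, or 19.3 and 83.2 CPM, counts scaled for depth by trimmed means. This left 23.2% [20.6, 26.0] of the shNC level, where brackets hold exact 95% intervals of counting error only. The log2 ratio was -2.11 [-2.28, -1.94], and 1.004% of all assessed genes had a lower one. SLC7A1 is the main carrier of arginine in most dividing cells.

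**Figure D1:**
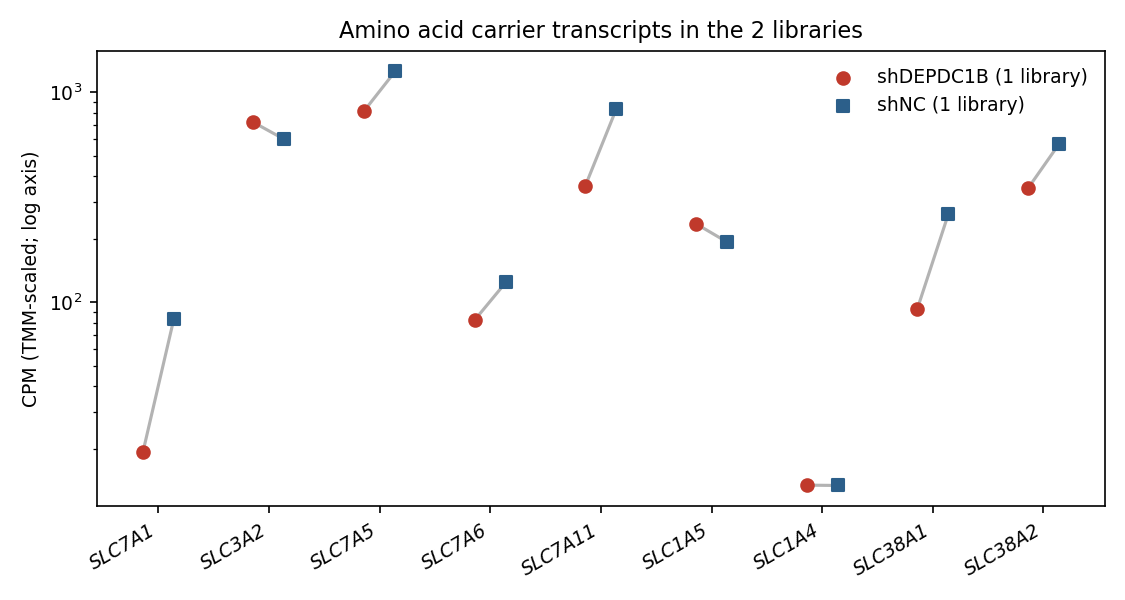
Level of each carrier in CPM on a log axis, with 1 point for the shDEPDC1B library (circles) and 1 for the shNC library (squares). The shDEPDC1B point lies well below the shNC point for SLC7A1 (19.3 and 83.2), SLC38A1 (93.1 and 263) and SLC7A11 (360 and 835), and slightly above it for SLC3A2 (720 and 597) and SLC1A5 (237 and 194).

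SLC3A2, the heavy chain (chromosome 11, 62856102 to 62888875, plus strand), went the other way from its light chains. It had 13132 counts in shDEPDC1B and 11508 in shNC, or 720 and 597 CPM. The log2 ratio was 0.27 [0.23, 0.31], short of 1.5-fold, and its sign did not hold once transcript length was fitted (-0.04 with GC content, -0.02 by loess).

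Of the light chains SLC7A11, which brings in cystine for glutathione in exchange for glutamate (chromosome 4, 138164097 to 138242349, minus strand), had the lowest ratio as measured. After the length and GC fit described below SLC7A5 was the lowest, at -0.71, against -0.47 for SLC7A11. SLC7A11 had 6559 counts in shDEPDC1B and 16097 in shNC, or 360 and 835 CPM, a log2 ratio of -1.22 [-1.26, -1.17]. In shDEPDC1B this was 43.1% [41.8, 44.3] of the shNC level. SLC7A11-AS1, an antisense gene that overlaps it by 14081 bases, had 18 and 156 counts (-3.04 [-3.83, -2.33]). No source used here states whether strand was kept, so reads of both genes cannot be told apart in the overlap.

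SLC7A5, the leucine and aromatic amino acid carrier (chromosome 16, 87830023 to 87869488, minus strand), had 14879 counts in shDEPDC1B and 24247 in shNC, or 816 and 1258 CPM, with a log2 ratio of -0.62 [-0.65, -0.60]. Its copy SLC7A5P2 had 9 and 14 counts. Reads are shared between similar genes by a model, so these counts do not show how many reads of copies went to SLC7A5. SLC7A6, which exchanges cationic for neutral amino acids (chromosome 16, 68264516 to 68301823, plus strand), had 1505 counts in shDEPDC1B and 2399 in shNC, or 82.5 and 124 CPM. Its log2 ratio of -0.59 [-0.69, -0.50], a fold of 1.51, lies just past the 1.5-fold line, and that of SLC7A5, a fold of 1.54, not far beyond it. The difference between the ratios of SLC7A5 and SLC7A6 was -0.03 [-0.13, 0.07], within counting error (intervals of differences are from the log odds ratio of the counts). SLC7A6OS, which overlaps SLC7A6 by 17321 bases on the other strand, had 197 and 217 counts (-0.06 [-0.35, 0.23]).

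Heavy and light chains were also set side by side per kilobase of transcript, the scale on which levels of different genes can be compared. SLC3A2 was at 324 CPM per kilobase in shDEPDC1B and 269 in shNC, and the 6 known light chains SLC7A5, SLC7A6, SLC7A7, SLC7A8, SLC7A10 and SLC7A11 summed to 257 and 413. Light chains thus stood at 0.794 of the heavy chain level in shDEPDC1B and at 1.54 in shNC. SLC7A5 alone was at 0.555 of SLC3A2 in shDEPDC1B and 1.03 in shNC, and SLC7A11 at 0.115 and 0.322. After the length and GC fit the log2 ratio of SLC3A2 exceeded that of SLC7A5 by 0.66 (0.89 as measured), that of SLC7A11 by 0.43 (1.49 as measured) and that of SLC7A6 by 0.21 (0.86 as measured).

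**Figure D2:**
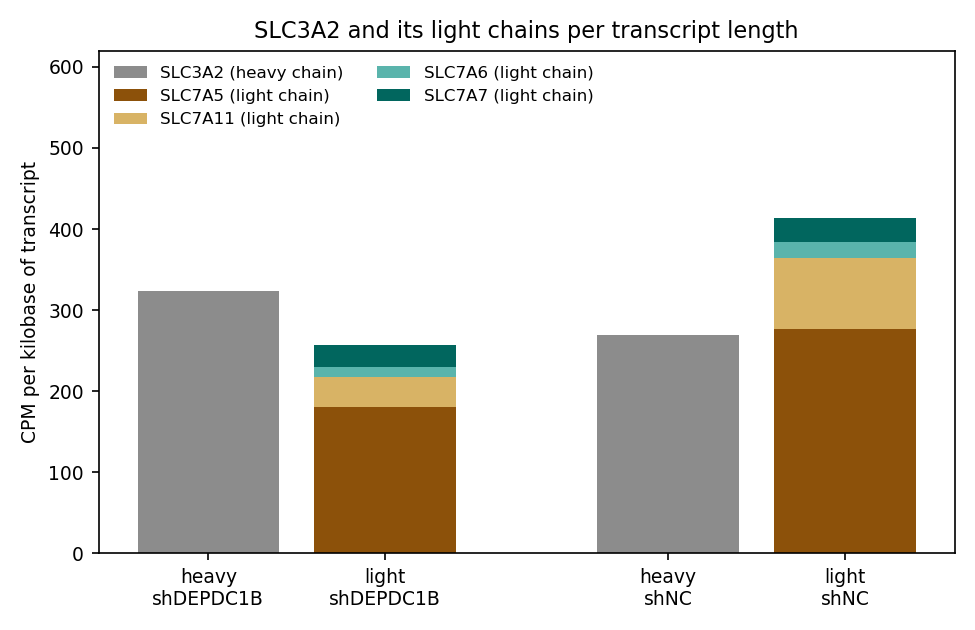
Bars from 0 of the heavy chain SLC3A2 (grey) and its light chains (stacked) in CPM per kilobase of the longest coding transcript, shDEPDC1B on the left and shNC on the right, 1 library each. The light chain stack (257) is lower than the heavy chain bar (324) in shDEPDC1B and higher (413 over 269) in shNC.

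The make-up of the light chain counts differed as well, but its direction did not hold once length was fitted. The log2 ratio of SLC7A5 minus that of SLC7A11 was 0.59 [0.54, 0.64] as measured and turned to -0.24 after the length and GC fit. SLC7A11 gave 27.2% [26.6, 27.7] of light chain counts in shDEPDC1B and 36.5% [36.0, 36.9] in shNC. SLC7A5 gave 61.6% [61.0, 62.2] in shDEPDC1B and 54.9% [54.5, 55.4] in shNC. SLC7A7, the light chain that exports cationic amino acids and is not among the 9, gave 5.01% [4.74, 5.29] and 3.19% [3.03, 3.36]. Its own log2 ratio was -0.14 [-0.25, -0.03], and -0.28 after the fit. SLC7A8 had no count in either library, which allows at most 3 counts in each.

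The SLC1 exchangers did not share the lower levels. SLC1A5, a glutamine carrier (chromosome 19, 46774883 to 46788594, minus strand), had 4317 counts in shDEPDC1B and 3738 in shNC, or 237 and 194 CPM, and a log2 ratio of 0.29 [0.22, 0.35] that fell to 0.01 after the length and GC fit. It did not differ from the ratio of SLC3A2 beyond counting error (SLC3A2 minus SLC1A5, -0.02 [-0.09, 0.06]). SLC1A4, which carries serine, alanine and cysteine (chromosome 2, 64988477 to 65023865, plus strand), had 246 counts in shDEPDC1B and 259 in shNC, or 13.5 and 13.4 CPM. Its log2 ratio of 0.01 [-0.25, 0.26] changed sign between scalings, and at this depth no difference could be detected.

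Both sodium-coupled carriers were lower. SLC38A1 (chromosome 12, 46183063 to 46270017, minus strand) had 1699 counts in shDEPDC1B and 5067 in shNC, or 93.1 and 263 CPM, a log2 ratio of -1.50 [-1.58, -1.42]. SLC38A2, which amino acid shortage is known to raise (chromosome 12, 46358189 to 46372867, minus strand), had 6367 counts in shDEPDC1B and 10926 in shNC, or 349 and 567 CPM, a log2 ratio of -0.70 [-0.74, -0.65]. The genes lie 88.2 kb apart on the same strand, and their ratios differed by -0.80 [-0.89, -0.71] (SLC38A1 minus SLC38A2). SLC38A1 made up 21.1% [20.2, 22.0] of their joint counts in shDEPDC1B and 31.7% [31.0, 32.4] in shNC.

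Per kilobase the order of the members was not the same in the libraries. In shDEPDC1B SLC3A2 led (324 CPM per kilobase), followed by SLC7A5 (180), SLC1A5 (82.1), SLC38A2 (71.4), SLC7A11 (37.3), SLC7A6 (13.1), SLC38A1 (11.5), SLC1A4 (2.96) and SLC7A1 (2.63). In shNC SLC7A5 (277) and SLC3A2 (269) led, followed by SLC38A2 (116), SLC7A11 (86.6), SLC1A5 (67.3), SLC38A1 (32.6), SLC7A6 (19.7), SLC7A1 (11.3) and SLC1A4 (2.95). SLC1A5 thus stood above SLC38A2 and SLC7A11 in shDEPDC1B and below both in shNC. These differences in log2 ratio were smaller after the length and GC fit described below. SLC1A5 minus SLC38A2 went from 0.99 to 0.31 and SLC7A11 minus SLC1A5 from -1.50 to -0.48. The order of levels after the fit was not computed. Of the 36 pairs of members, the ratios of 34 differed by more than counting error. The exceptions were SLC7A5 with SLC7A6 and SLC3A2 with SLC1A5. No share over other gene pairs was computed, and single-gene intervals excluded equality in 73.8% of assessed genes. After the length and GC fit described below some differences changed sign, such as SLC3A2 minus SLC1A4 (0.26 to -0.14), while others kept it, such as SLC7A1 minus SLC3A2 (-2.38 to -1.78). SLC7A5 minus SLC7A6 went from -0.03 to -0.45.

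Transcript length moved with these ratios. Long transcripts were lower in shDEPDC1B across all assessed genes: when protein-coding genes were cut into 10 classes of like size by transcript length, the class of the longest transcripts (7664 nucleotides or more) had a median log2 ratio of -0.63 and that of the shortest (1507 or fewer) 0.58. The 6 lower members have transcripts of 4537 to 9645 nucleotides, SLC3A2 and SLC1A5 have 2222 and 2882, and SLC1A4, with 4561, is close in length to SLC7A5. SLC7A11 and SLC38A1 belong to the longest class, in which 52.2% of genes were at least 1.5-fold lower, and SLC7A1 and SLC7A6 to the next, with 38.8%. Within its own class SLC7A1 had 1.22% of genes below it and SLC38A1 8.95%. SLC7A5 had 18.0%, SLC7A11 19.4%, SLC38A2 22.1% and SLC7A6 38.7%. SLC3A2 (45.8%), SLC1A5 (57.6%) and SLC1A4 (61.7%) lay near the middle of theirs.

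**Figure D3:**
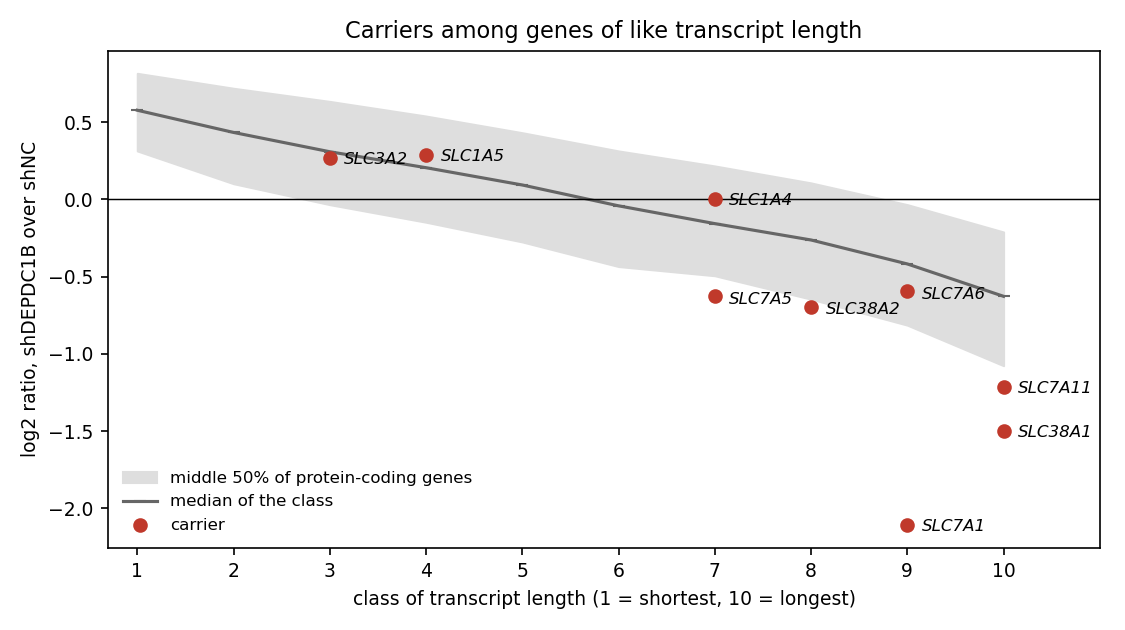
The log2 ratio of each carrier (points) against the class of transcript length it falls in (1 shortest, 10 longest), with the median (line) and the middle 50% (band) of assessed protein-coding genes. SLC7A1, SLC38A1, SLC7A11, SLC7A5 and SLC38A2 lie below the band of their class, and the other 4 within it.

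When a linear fit of the ratio on length and GC content over all assessed genes was subtracted, 3 members stayed at least 1.5-fold lower. SLC7A1 was then at -1.82, SLC38A1 at -0.95 and SLC7A5, whose transcript is rich in G and C (61.1%), at -0.71. SLC7A11 came to -0.47, SLC38A2 to -0.30 and SLC7A6 to -0.26. A loess on length alone kept SLC7A1 (-1.64), SLC38A1 (-0.98) and SLC7A11 (-0.61), and put SLC7A5 at -0.47. The share of all assessed genes past 1.5-fold was not computed after this loess or after the length and GC fit. SLC7A1 and SLC38A1 were thus the members past 1.5-fold in both.

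**Figure D4:**
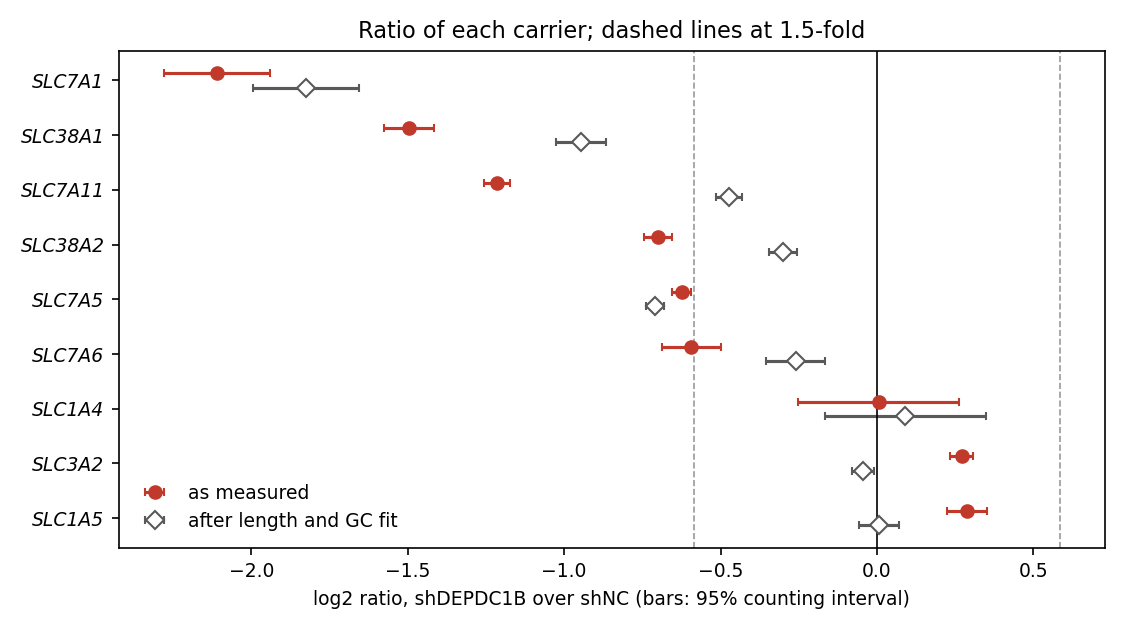
The log2 ratio of each carrier, shDEPDC1B over shNC, as measured (filled circles) and after the length and GC fit (open diamonds), with 95% intervals of counting error as bars and dashed lines at 1.5-fold. SLC7A1, SLC38A1 and SLC7A5 lie left of the lower dashed line in both forms, while SLC3A2 and SLC1A5 move to near 0 after the fit.

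Promoter sequences were read from RefSeq (GRCh38.p14, 250 bases before to 50 after each start) for 8 of the 9 members, SLC7A11 being the exception. They were searched on both strands for the amino acid response element bound by ATF4 (TGATGNAA, in 3.62% of 35116 promoters), the core of the antioxidant response element bound by NRF2 (TGACNNNGC, 13.3%) and the E-box bound by MYC (CACGTG, 7.26%). These shares are per promoter, and the 8 members have 14 promoters between them, 3 each for SLC3A2 and SLC1A5. The first motif matched in 5 of the 14, each in a different member. These windows of 10 bases on either side, cut at the end of the RefSeq sequence, are shown on the gene's strand because they let the members be compared. Capitals mark the match, which in SLC1A4 and SLC3A2 reads on the other strand.
SLC7A1 (chr13:29595664-29595691, minus): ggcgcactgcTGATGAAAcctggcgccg
SLC38A1 (chr12:46266503-46266530, minus): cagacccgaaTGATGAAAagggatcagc
SLC1A5 (chr19:46784894-46784921, minus): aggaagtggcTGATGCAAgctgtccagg
SLC1A4 (chr2:64989382-64989409, plus): cggctcccgtTTGCATCAtctccagccg
SLC3A2 (chr11:62881726-62881748, plus): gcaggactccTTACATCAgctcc
Counted from the start, the match lies at positions 8 to 15 in SLC7A1, -4 to 4 in SLC38A1, -97 to -90 in SLC1A5, -7 to 1 in SLC1A4 and 38 to 45 in SLC3A2. The ratios of these members ran from -2.11 (SLC7A1) to 0.29 (SLC1A5). In its 1 promoter window SLC38A2 held no match to any of the 3 motifs, and sequence outside the windows was not searched. No matches overlapped. A match is a description of letters and not a bound site.

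The antioxidant core matched in 5 of the 14 promoters, those of SLC3A2, SLC7A1, SLC7A5, SLC7A6 and SLC1A5. The matches of the first 3 genes are shown with the same marking.
SLC3A2 (chr11:62881652-62881680, plus): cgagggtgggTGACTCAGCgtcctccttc
SLC7A1 (chr13:29595755-29595783, minus): tgcccggcggTGACGCGGCcgagcgggcc
SLC7A5 (chr16:87869491-87869519, minus): gcggggttccTGACGCAGCtgcgggcggc
These members had ratios of 0.27, -2.11 and -0.62, and after the length and GC fit of -0.04, -1.82 and -0.71. An E-box matched in SLC7A5 and SLC1A5, at -0.62 and 0.29. Of the factors, ATF4 had 110 CPM in shDEPDC1B and 134 in shNC, a log2 ratio of -0.27 [-0.36, -0.19] that lay past 1.5-fold lower once length was fitted (-0.61 with GC content and -0.61 by loess). NFE2L2, which encodes NRF2, had 127 and 130 CPM (-0.03 [-0.11, 0.05]; -0.01 after the length and GC fit) and MYC 128 and 110 (0.22 [0.13, 0.30]; -0.00112 after it).

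The remaining genes of the same families were counted next, by the same rule that called 19.6% lower and 19.2% higher of all assessed genes. After the length and GC fit 1441 of the 2708 lower and 1224 of the 2662 higher genes of the whole table were still past 1.5-fold on the same side, and values after that fit are given where it ended a call. Called genes without a transcript length could not be fitted and count as not kept, so these whole-table counts are lower limits. Genes that only the fit brought past 1.5-fold are not in these counts. Of 10 other SLC7 and SLC3 genes 4 were assessed, and 1 was lower, SLC7A14, with 11 and 31 counts. SLC7A2, another cationic carrier, was at 0.17 [-0.16, 0.50]. Of 14 other SLC1 and SLC38 genes 5 were assessed. The glutamate carrier SLC1A1 was lower, at 9.15 CPM in shDEPDC1B and 14.7 in shNC (-0.69 [-0.97, -0.41]; -0.52 after the fit), and SLC38A10 higher, at 192 and 119 CPM (0.69 [0.61, 0.76]; 0.52 after the fit).

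Of 20 amino acid carriers of other families 12 were assessed, with a median of -0.32. Among them 5 were lower and 3 higher (all assessed genes, 19.6% and 19.2%). SLC36A4 (10.2 CPM in shDEPDC1B and 31.8 in shNC, -1.64 [-1.89, -1.40]) and SLC36A1 (8.22 and 19.9, -1.27 [-1.55, -0.997]) were lower. SLC43A2, which carries leucine and other large neutral amino acids without a heavy chain, was higher (27.5 and 9.23 CPM, 1.58 [1.33, 1.83]), though its deposited value is not a whole hundredth, unlike those of the 9 members, and is uncertain. MFSD12, needed for cysteine import into lysosomes and melanosomes, had 75.9 and 39.4 CPM (0.95 [0.82, 1.08]), and 0.41 after the fit.

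**Figure D5:**
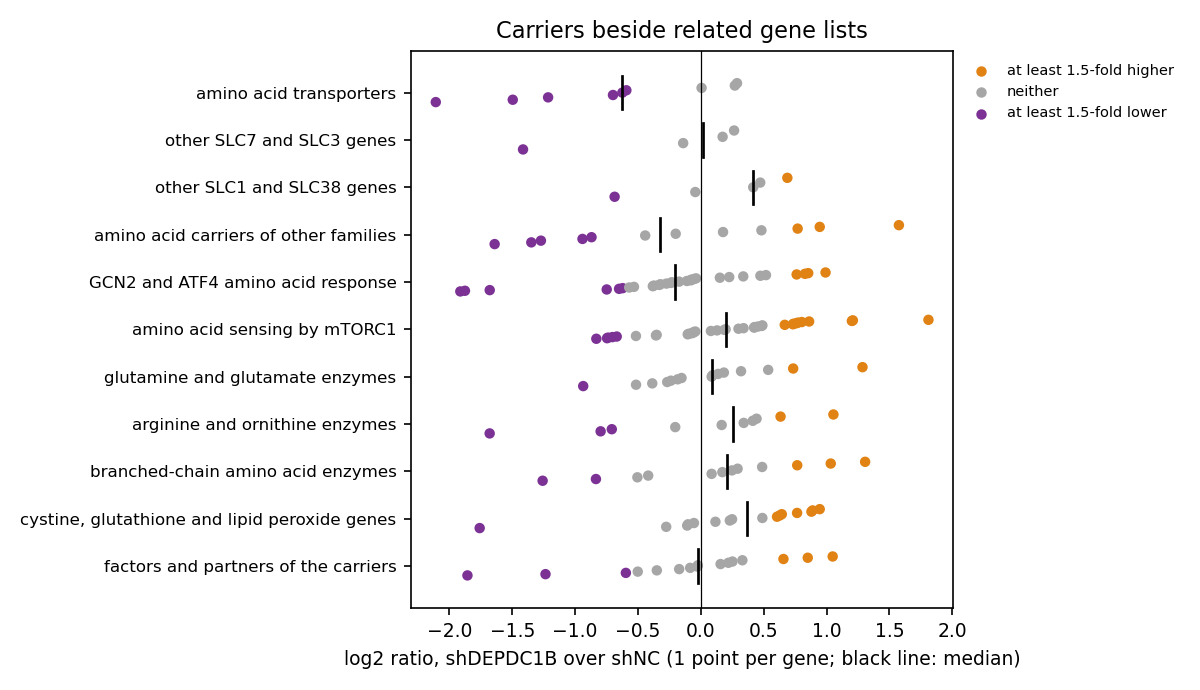
The log2 ratio of each assessed gene (points) for the carriers and 10 related lists, with the list median as a black line and colours for genes at least 1.5-fold lower, neither, or at least 1.5-fold higher. The carriers have a median of -0.62 and no higher gene, while the lists have medians between -0.32 and 0.42.

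Of 30 genes of the GCN2 and ATF4 response, none of them a member, 6 were lower and 4 higher. The shares over all assessed genes were 19.6% and 19.2%. After the length and GC fit 5 of the 6 lower and 1 of the 4 higher genes were still past 1.5-fold. The median of the list was -0.20, and -0.15 after the length and GC fit. ATF3 and ATF4 came past 1.5-fold lower only with that fit (-0.79 and -0.61). Asparagine synthetase, ASNS, a common readout of ATF4, had 53.7 CPM in shDEPDC1B and 63.4 in shNC (-0.24 [-0.36, -0.12]). The lowest by interval were the mitochondrial folate enzymes MTHFD2 (37.7 and 142 CPM, -1.91 [-2.04, -1.79]), SHMT2 (-1.68) and ALDH1L2 (-1.88), next to the transcription factor CEBPB, which was higher (0.99 [0.91, 1.07]; 0.45 after the fit).

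Enzymes that use what the carriers bring in were counted by substrate. Of 15 assessed glutamine and glutamate genes 1 was lower and 2 higher (all assessed genes, 19.6% and 19.2%). The higher ones were the aspartate aminotransferase GOT1, at 125 CPM in shDEPDC1B and 51.3 in shNC (1.29 [1.18, 1.39]), and the proline enzyme PYCR1 (0.73 [0.61, 0.86]; 0.27 after the fit). Of 10 arginine and ornithine genes 3 were lower and 2 higher (all assessed genes, 19.6% and 19.2%). Ornithine decarboxylase, ODC1, which starts polyamine synthesis, had 40.5 and 130 CPM (-1.68 [-1.80, -1.56]) and the antizyme inhibitor AZIN1 was at -0.80 (-0.50 after the fit), whereas argininosuccinate lyase, ASL (1.05), and arginase ARG2 (0.63 [0.21, 1.07]; 0.49 after the fit) were higher.

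Of 16 genes of cystine, glutathione and lipid peroxide handling 7 were higher and 1 lower, where 19.2% and 19.6% of all assessed genes were, with a median of 0.37 (0.28 after the fit). Their median transcript is 2617 nucleotides long, against 9645 for SLC7A11. After the fit 2 of the 7 higher genes and the lower one were still past 1.5-fold. The fit also brought GCLM past 1.5-fold higher (0.23 to 0.64) and HMOX1 past 1.5-fold lower (-0.28 to -0.69). The peroxidase GPX4 had 177 CPM in shDEPDC1B and 95.3 in shNC (0.89 [0.81, 0.97]), but stood at 0.08 after the fit. Ferritin heavy chain FTH1, which has many processed copies and is uncertain, had 7409 and 3847 CPM (0.95, and 0.52 after the fit). The quinone reductase AIFM2 had 112 and 65.7 CPM (0.77 [0.66, 0.87]; 0.64 after the fit). ACSL4, which loads membranes with polyunsaturated fatty acids, was the lower one, at 16.9 and 57.4 CPM (-1.76 [-1.95, -1.58]).

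Of 16 factors and partners of the carriers 3 were lower and 3 higher (all assessed genes, 19.6% and 19.2%). Their median was -0.03. KEAP1, which marks NRF2 for breakdown, was higher (111 CPM in shDEPDC1B and 53.5 in shNC, 1.05 [0.94, 1.16]), as was BSG, a surface chaperone found with SLC3A2 (0.85 [0.81, 0.89]; 0.38 after the fit). HIF1A had 293 and 689 CPM (-1.24 [-1.28, -1.19]) and EGFR, known to form complexes with SLC1A5, 94.0 and 340 (-1.86 [-1.93, -1.78]).

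DEPDC1B itself had 39 counts in shDEPDC1B and 329 in shNC, a log2 ratio of -2.997 [-3.51, -2.52], as its label says. The intervals of 73.8% of assessed genes excluded equality. Of 8 A549 and epithelium markers 1 was higher, EPCAM (65 and 37 counts, 0.89 [0.29, 1.52]), and the list ran from -0.14 to 0.89. Keratins KRT8 and KRT18 had 5674 and 5350 CPM in shDEPDC1B, against 5498 and 5144 in shNC. Of 8 type 2 alveolar markers the lipid transporter ABCA3 alone was assessed, and was lower (57.5 and 90.8 CPM, -0.66 [-0.77, -0.55]; -0.57 after the fit), while SFTPA1 and SFTPA2 were at 0 and the other 5 had 10 counts or fewer. Of 10 leukocyte markers 3 had at least 30 counts. CD14 was higher (175 and 107 counts, 0.79 [0.43, 1.15]; 0.39 after the fit), with ITGAM at 0.48 and CD68 at -0.40. PTPRC and CD3E had 2 counts or fewer, and the list summed to 48.7 CPM in shDEPDC1B and 49.8 in shNC. Fibroblast markers summed to 12.3 and 10.7 CPM and endothelial markers to 0.548 and 0.726.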

How the data were processed

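RNA of A549 cells was sequenced on MGI instruments, per the labels' protocols, with 1 library per group. The authors deposited estimated counts per gene symbol, made with Bowtie2 and RSEM on hg38 per the submitters' processing notes. The gene annotation and tool versions, not given in the sources used here, are unknown. The values were rounded to whole numbers and scaled with edgeR 4.0.16 (R 4.3.3) by TMM, with factors of 0.967 for shDEPDC1B and 1.03 for shNC. With 1 library per group no p-value was computed. Ratios carry exact Clopper-Pearson 95% intervals, which cover counting error only, since each group has 1 library. Reads have no molecular identifiers and counts are estimates, so the intervals may be too narrow even for that. A gene was assessed if either library held at least 30 counts, and called at 1.5-fold if its interval also excluded equality.

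Coordinates and transcript length and GC are from GENCODE 29 (94.0% of assessed genes), by the longest protein-coding transcript (88.6%) or, for genes without one, the longest transcript. RSEM shares reads between similar genes by a model. The members and lists were chosen with earlier results of these data known, and the promoter motifs after the ratios were seen. All 9 members are named, with ATF4, ASNS, MYC, NFE2L2, DEPDC1B, up to 4 called genes per list by interval bound, and assessed genes within 10 kb of a member. Some genes that this rule names are not reported here. Other list members and single counts were named after their values were seen. Ratios and calls were run on simulated Poisson counts with set ratios. These hold no variation between cultures and no length trend, so they check the calculation only. Alternatives included DESeq2 1.42.0 size factors, other filters, a prior count of 2 and fits on expression, length and GC.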

Additional observations from a re-analysis of the deposited data

How the results depend on the processing

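Under DESeq2 size factors, library totals, upper-quartile factors, TMM on protein-coding genes, no filter, at least 100 counts, a prior count of 2 and a loess on mean expression, the same 6 members were at least 1.5-fold lower and none higher. The count fell to 3 after the length and GC fit (SLC7A1, SLC7A5, SLC38A1), and to 3 after a loess on transcript length and with a 2-fold threshold (SLC7A1, SLC7A11, SLC38A1 in both). At 2-fold, 8.97% of all assessed genes were lower. After the length and GC fit at least 1441 of the 2708 lower genes of the whole table were still past 1.5-fold. The share of all assessed genes past 1.5-fold after either length fit was not computed. The median log2 ratio of the members, -0.62, was -0.68 with DESeq2 size factors, -0.72 with library totals, -0.82 after the loess on expression, -0.30 once the length and GC fit was subtracted and -0.47 with the loess on length. SLC7A1 ranged from -2.21 to -1.64, SLC38A1 from -1.59 to -0.95 and DEPDC1B from -3.22 to -2.91 over the 10 alternatives. No paired analysis was possible because each group has 1 library. Replicates could not be left out for the same reason, and the part of any difference due to culture or library preparation cannot be told apart from the hairpin.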

Other observations

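Of 35 genes by which mTORC1 senses amino acids 10 were higher and 5 lower, against 19.2% and 19.6% of all assessed genes, and 5 and 2 of these were still past 1.5-fold after the length and GC fit. The median log2 ratio was 0.20 (0.13 after the fit). CASTOR1, an arginine sensor that holds mTORC1 back when arginine is short, had 59.9 CPM in shDEPDC1B and 17.1 in shNC (1.81 [1.63, 1.99]). Its relative CASTOR2 had 66.4 and 28.9 (1.20 [1.06, 1.35]; 0.58 after the fit), and is uncertain because the genome holds near copies of it. The mTOR partner MLST8 had 61.3 and 26.5 (1.21 [1.06, 1.36]). SEC13, a scaffold of the GATOR complex and of vesicle coats, was lower, at 54.9 and 97.7 CPM (-0.83 [-0.94, -0.72]). CASTOR1 and the arginine carrier SLC7A1 (-2.11) thus lay on opposite sides of equality, a pair set side by side with the ratios known. SLC38A9, of the same list, was at -0.04 [-0.23, 0.14] and the cationic carrier SLC7A2 at 0.17 [-0.16, 0.50]. Whether these ratios are linked was not tested.

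Of 12 genes that break down branched-chain amino acids 3 were higher and 2 lower (all assessed genes, 19.2% and 19.6%). Their median was 0.21. The mitochondrial aminotransferase BCAT2 had 99.1 CPM in shDEPDC1B and 40.0 in shNC (1.31 [1.18, 1.43]), while its cytosolic relative BCAT1 had 34 and 86 counts (-1.26 [-1.88, -0.67]; -0.57 after the length and GC fit). BCKDHA, a subunit of the branched-chain keto acid dehydrogenase, was higher (1.03 [0.91, 1.16]) and DBT, another subunit of the complex, lower (-0.83 [-1.03, -0.64]; -0.12 after the fit).

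Among genes within 10 kb of a member, PLA2G15 next to SLC7A6 had 408 counts in shDEPDC1B and 253 in shNC (0.77 [0.54, 1.001]; 0.49 after the fit), against -0.59 for SLC7A6. PRMT7, also next to SLC7A6, was at 0.51 [0.36, 0.67]. SNHG1, which lies 188 bases from SLC3A2 on the other strand, had 756 and 932 counts (-0.22 [-0.36, -0.08]), against 0.27 for SLC3A2.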
